A study of Homo sapiens with 12 samples.

Results

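Mitochondrial ribosomal protein genes were taken as every row of the deposited count table whose symbol begins with MRPL (large subunit) or MRPS (small subunit), followed by a number and at most one further letter. This rule found 77 genes among 25369, of which 48 had MRPL and 29 had MRPS symbols. The libraries were poly(A)+ RNA-seq of 3 established human cancer lines. RKO is a colon carcinoma line grown in DMEM, A549 a lung adenocarcinoma line grown in DMEM, and H460 a large cell lung carcinoma line grown in RPMI, all in medium with fetal bovine serum. Each line was kept in normoxia or moved to hypoxia (1% O2) for 24 h, with 2 replicates per line and condition and 12 libraries in all. Each line is a single culture model, and medium and line cannot be told apart where H460 is compared with the other lines.

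The mitochondrial ribosome is built from RNAs encoded in mitochondrial DNA and from proteins encoded in the nucleus, made in the cytosol and imported. It translates the few mRNAs of the mitochondrial genome, all of which encode subunits of the respiratory chain and ATP synthase. Part of its proteins have a counterpart in bacterial ribosomes, while the rest were added during the evolution of mitochondria. Cells in low oxygen are known to reduce respiration, largely through the hypoxia-inducible factors, and the levels of the genes for this ribosome were compared here between oxygen conditions and between lines.

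The libraries held 27350424 to 41757584 counted reads. Levels are given as TMM-scaled CPM, that is, counts relative to the library's total after a library-wise scaling factor, and levels of different genes are compared only as RPKM, which also divides by gene length. Calls required a fold change above 1.5 together with an adjusted p (edgeR quasi-likelihood F test, Benjamini-Hochberg over every gene tested in the line) below 0.1. The calls included 6 of 6 established hypoxia-inducible genes as higher in RKO, 5 in A549 and 6 in H460. Tissue markers were sparse: 1 of 6 colon markers (CDX2) and 1 of 6 lung markers (KRT7) passed the filter on low counts in RKO. In A549, 2 colon (CDH17, LGALS4) and 2 lung markers (NAPSA, KRT7) passed it. In H460, 3 lung (NKX2-1, NAPSA, KRT7) and 0 colon markers passed it, NKX2-1 only through the hypoxia libraries. Among epithelial markers, KRT18 was lower in hypoxia in RKO (-1.05 ± 0.15), and NKX2-1 and KRT19 were higher in H460, NKX2-1 from 0.0654 and 0 CPM to 3.33 and 3.12 CPM and KRT19 by 1.22 ± 0.10. Among 8 markers of leukocytes, endothelium and fibroblasts, PTPRC, CD3E, PECAM1, COL1A2 and DCN stayed below the filter in every line. COL1A1 was called higher in RKO and A549, VWF in RKO and CD68 in H460. In RKO, VWF had 0.116 and 0.110 CPM in normoxia and 0.539 and 0.535 CPM in hypoxia. COL1A1 there had 0.378 and 0.494 CPM in normoxia and 1.80 and 2.11 CPM in hypoxia. Both genes lay near the filter and passed it in RKO only through the hypoxia libraries. The part of these markers in the results was not tested. In bulk samples, fewer cells of a type and less RNA per cell cannot be told apart.

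All 77 genes passed the filter on low counts in every line, and the lowest count of any of them in any library was 112. Together they took 0.570% and 0.532% of the reads of the RKO normoxia libraries (replicates 1 and 2) and 0.349% and 0.372% in hypoxia. In A549 the shares were 0.474% and 0.425% in normoxia and 0.397% and 0.332% in hypoxia. In H460 they were 0.439% and 0.437% in normoxia and 0.261% and 0.270% in hypoxia. Both hypoxia libraries lay below both normoxia libraries in each line, with the widest gaps in RKO and H460.

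The promoters of 68 of the 77 genes were present in the RefSeq-derived table used here (GRCh38.p14, 250 bases before to 50 bases after the start). Each was searched on both strands for letters of factors known to act on nuclear genes of mitochondria or in hypoxia: GCGCA and GCGC with 1 base of any kind between them for NRF1, CCGGAAG for ETS factors such as GABP, AAGATGGC for YY1, CACGTG (the E-box of MYC and MAX), and ACGTGC or GCGTGC for the hypoxia response element (HRE), which can overlap the E-box. The ETS letters were found in 41.2% of the 68 promoters, against 17.6% of 10970 promoters of genes tested in any line and 10.7% of all 27305 promoters. The YY1 letters were found in 29.4% against 5.03% and 3.03%, and the NRF1 letters in 11.8% against 10.7% and 6.28%. The E-box was found in 8.82% against 9.96% and 7.43%, and the HRE letters in 23.5% against 26.7% and 18.8%. The median GC content was 60.3% in the 68 promoters and 65% in those of all tested genes. The 250 bases before the start are printed for 5 genes, in capitals where these motifs match, 5′ to 3′ on the strand of the gene. MRPL20 and MRPS34 are shown as genes with much lower mRNA in hypoxia, and MRPL17 and MRPL45 as genes that were higher in hypoxia in H460. MRPS11 is shown because its start faces that of MRPL46. Part of the MRPS11 stretch also lies in the 250 bases before MRPL46 (chr15:88467389-88467638). These starts come from the RefSeq-derived promoters and not from the deposited coordinates.
MRPL20, chr1:1407294-1407543, minus strand: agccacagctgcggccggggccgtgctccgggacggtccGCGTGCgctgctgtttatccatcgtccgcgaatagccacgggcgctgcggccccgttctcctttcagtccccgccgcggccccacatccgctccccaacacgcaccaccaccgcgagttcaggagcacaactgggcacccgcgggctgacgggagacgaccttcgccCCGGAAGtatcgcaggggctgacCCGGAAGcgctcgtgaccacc
MRPS34, chr16:1773135-1773384, minus strand: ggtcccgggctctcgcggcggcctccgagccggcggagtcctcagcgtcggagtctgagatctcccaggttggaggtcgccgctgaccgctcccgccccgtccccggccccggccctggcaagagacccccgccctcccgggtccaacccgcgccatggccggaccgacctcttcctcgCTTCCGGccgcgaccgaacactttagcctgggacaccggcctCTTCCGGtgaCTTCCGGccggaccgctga
MRPL17, chr11:6683341-6683590, minus strand: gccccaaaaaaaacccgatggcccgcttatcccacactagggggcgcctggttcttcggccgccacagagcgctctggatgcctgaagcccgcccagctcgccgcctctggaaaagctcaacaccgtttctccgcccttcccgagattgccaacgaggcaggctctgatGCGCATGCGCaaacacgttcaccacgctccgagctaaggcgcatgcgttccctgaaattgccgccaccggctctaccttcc
MRPL45, chr17:38296918-38297167, plus strand: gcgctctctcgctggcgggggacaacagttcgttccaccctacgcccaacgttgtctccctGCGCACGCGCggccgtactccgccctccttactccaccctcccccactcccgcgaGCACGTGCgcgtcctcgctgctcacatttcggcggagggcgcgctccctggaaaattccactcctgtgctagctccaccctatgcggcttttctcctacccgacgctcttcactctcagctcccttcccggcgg
MRPS11, chr15:88467458-88467707, plus strand: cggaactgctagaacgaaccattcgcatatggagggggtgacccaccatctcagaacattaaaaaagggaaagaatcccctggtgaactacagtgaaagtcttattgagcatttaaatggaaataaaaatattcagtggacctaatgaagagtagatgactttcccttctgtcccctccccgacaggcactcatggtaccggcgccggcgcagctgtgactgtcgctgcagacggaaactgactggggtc
The capitals mark 2 ETS matches and 1 HRE match for MRPL20, 3 ETS matches for MRPS34, 1 NRF1 match for MRPL17, and for MRPL45 an NRF1 match that also holds HRE letters, followed by an E-box that overlaps an HRE match on each strand. No match lay in the MRPS11 stretch. Of 25 genes with a promoter that were lower in both RKO and H460, 10 held ETS letters, 8 YY1 letters, 6 HRE letters, 2 NRF1 letters and 2 an E-box. Of 4 that were higher in H460, 2 held NRF1 letters, 2 HRE letters, 1 YY1 letters, 1 an E-box and 0 ETS letters. A match describes letters, not binding.

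In normoxia the RPKM of the genes spanned more than an order of magnitude in each line, with medians of 42.7 in RKO, 36.8 in A549 and 34.6 in H460 and quartiles of 29.7 and 64.0, 24.2 and 55.6, and 22.2 and 56.6. MRPL51, a mitochondria-specific large subunit protein, was among the 3 highest in every line, at an RPKM of 158 ± 6.59 in RKO, 155 ± 25.4 in A549 and 111 ± 5.10 in H460 (SD, n = 2). MRPL41 led in RKO (161 ± 8.59), MRPL12 in A549 (161 ± 45.1) and MRPL24 in H460 (139 ± 2.00), but in RKO and A549 the leading gene and MRPL51 lay within each other's spread. MRPL33 was also among the 3 highest in A549 and H460. At the low end, MRPS24 had an RPKM of 10.3 ± 1.94 in RKO, 10.8 ± 3.46 in A549 and 10.4 ± 1.72 in H460, but its body overlaps the read-through gene URGCP-MRPS24 on the same strand over 2989 bases, and the counting mode of the authors leaves out reads that fit 2 genes. MRPL22 also lay near the low end in every line, at 14.1 in RKO, 10.6 in A549 and 11.9 in H460. No RPKM is given for MRPS18B, since its deposited coordinates run across copies of its region and make its length unusable.

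In RKO, 49 of the 77 genes were lower in hypoxia and 0 were higher. Of all 12817 genes tested in RKO, 15.1% were called lower and 18.8% higher. Every one of the 77 had a negative log2 fold change (76 with library-size scaling, where the median was -0.59), the median being -0.68 (0.01 over all genes), so that the median gene had 1.60-fold more mRNA in normoxia. At the adjusted p alone 67 were lower, against 22.9% of all genes, and at an unadjusted p under 0.05 again 67 were lower and 0 higher. DESeq2 also called 0 higher. In 73 genes both hypoxia libraries lay below both normoxia libraries and in 0 above, while 35.1% of all genes lay below and 35.2% above.

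MRPL1, the counterpart of a bacterial protein beside the tRNA exit site, had 30.1 and 25.1 CPM in the RKO normoxia libraries and 8.16 and 11.2 CPM in hypoxia. Both hypoxia values were less than those of either normoxia library. Its log2 fold change of -1.51 ± 0.22 (SE, adjusted p = 0.000639) was the lowest of the 77 in RKO.

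MRPL20 (chr1:1337276-1342693, minus strand, GRCh37), a large subunit protein with a bacterial counterpart that is known to be needed for subunit assembly in bacteria, had 95.4 and 90.8 CPM in normoxia and 28.6 and 38.3 CPM in hypoxia. The conditions did not overlap. The log2 fold change was -1.47 ± 0.18 (adjusted p = 0.000258). MRPL3 followed with 228 and 186 CPM in normoxia against 81.4 and 82.6 CPM in hypoxia, a log2 fold change of -1.33 ± 0.16 (adjusted p = 0.000253).

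MRPS34 (chr16:1821896-1823140, minus strand), a mitochondria-specific small subunit protein, had 118 and 111 CPM in normoxia and 44.0 and 47.8 CPM in hypoxia. Hypoxia values were again all below normoxia values, with a log2 fold change of -1.32 ± 0.15 (adjusted p = 0.0002). The genes at the other end of the order showed no such separation. MRPL17 had 81.4 and 65.5 CPM in normoxia and 78.1 and 63.7 CPM in hypoxia, and its value of -0.05 ± 0.17 turned positive under library-size scaling, in the joint fit and in the limma fits. MRPL10 (-0.14 ± 0.17), MRPS24 (-0.18 ± 0.26) and MRPS25 (-0.18 ± 0.17) were not called either, and their conditions overlapped.

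**Figure D1:**
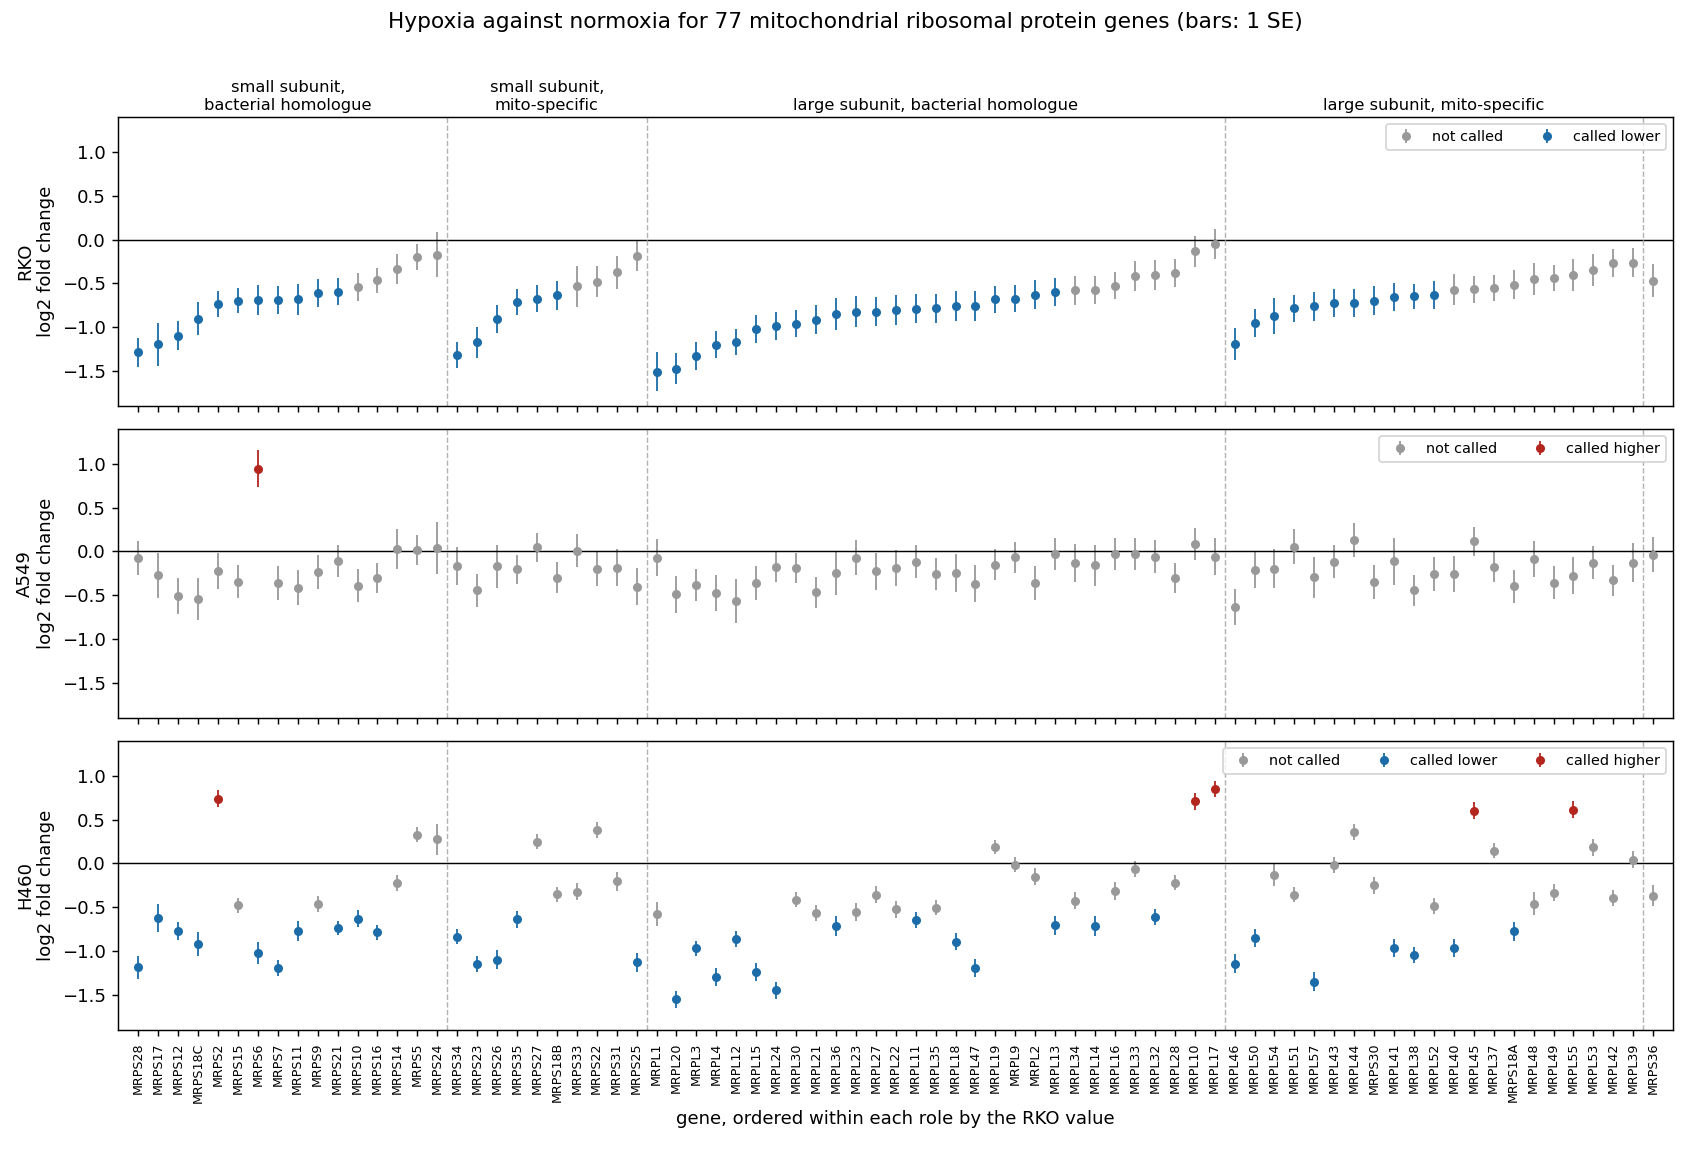
Log2 fold change in hypoxia against normoxia (y axis, bars 1 SE) for each of the 77 genes (x axis) in RKO, A549 and H460, with called genes in color; dashed lines separate the roles. All RKO points lie below 0, 1 gene is called in A549, and H460 has 35 genes called lower and 5 called higher.

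In H460, 35 of the 77 genes were lower in hypoxia and 5 were higher. Among all 14080 genes tested in H460, 27.3% were called lower and 24.6% higher. The median log2 fold change of the 77 was -0.53 (-0.04 over all genes), a 1.44-fold higher level in normoxia for the median gene. H460 is the line in which the scaling matters most: scaling by library size alone shifted the median of all genes by -0.35 relative to TMM (0.08 in RKO, -0.09 in A549), and then 55 of the 77 were called lower, 0 higher, with a median of -0.88. At the adjusted p alone the TMM fit gave 57 lower and 10 higher, against 39.7% and 38% of all genes. In 60 genes both hypoxia libraries lay below and in 12 above both normoxia libraries, against 44.6% and 41.8% of all genes.

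MRPL20 was also the lowest gene in H460. It had 56.0 and 52.8 CPM in normoxia and 18.9 and 18.2 CPM in hypoxia, a log2 fold change of -1.55 ± 0.10 (adjusted p = 5.8e-08). All hypoxia values were below those in normoxia, as for the next 3 genes.

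MRPL24, a large subunit protein with a bacterial counterpart, had 117 and 112 CPM in normoxia and 38.7 and 44.8 CPM in hypoxia, a log2 fold change of -1.45 ± 0.10 (adjusted p = 1.02e-07). MRPL57, a mitochondria-specific large subunit protein, had 34.1 and 32.5 CPM in normoxia and 12.3 and 13.8 CPM in hypoxia (-1.35 ± 0.11, adjusted p = 5.5e-07). MRPL4, whose bacterial counterpart lines the exit tunnel, had 56.7 and 53.0 CPM in normoxia and 20.8 and 23.6 CPM in hypoxia (-1.30 ± 0.10, adjusted p = 3.6e-07). All of these 4 genes were also called lower in RKO.

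The 5 genes called higher in H460 were MRPL17, MRPS2, MRPL10, MRPL55 and MRPL45. MRPL17 (chr11:6701616-6704632, minus strand), a large subunit protein with a bacterial counterpart, had 39.7 and 37.5 CPM in normoxia and 72.8 and 66.6 CPM in hypoxia, a log2 fold change of 0.85 ± 0.09 (adjusted p = 5.67e-06). Both hypoxia libraries exceeded both normoxia libraries. Under library-size scaling its value was 0.50 and no longer passed the fold minimum.

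MRPL10, the stalk base protein to which MRPL12 binds, had 47.7 and 43.6 CPM in normoxia and 77.4 and 71.6 CPM in hypoxia (0.71 ± 0.09, adjusted p = 2.73e-05). MRPL55 had 30.6 and 28.5 CPM in normoxia and 48.2 and 42.2 CPM in hypoxia (0.61 ± 0.10, adjusted p = 0.000171). MRPL45, which sits at the exit of the tunnel and anchors the ribosome to the inner membrane, had 50.3 and 44.0 CPM in normoxia and 75.2 and 67.8 CPM in hypoxia (0.60 ± 0.10, adjusted p = 0.000183). The conditions did not overlap in any of these 3. With library-size scaling the values were 0.35, 0.26 and 0.25, still positive but under the fold minimum, and MRPL55 and MRPL45 also fell under it without H460 normoxia replicate 2 (0.53 and 0.47) or without H460 hypoxia replicate 1 (0.53 and 0.54).

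MRPS2 (chr9:138392477-138396519, plus strand), a small subunit protein with a bacterial counterpart, moved in opposite directions in 2 lines. In H460 it had 146 and 131 CPM in normoxia and 244 and 217 CPM in hypoxia, a log2 fold change of 0.74 ± 0.10 (adjusted p = 2.68e-05; 0.39 and below the fold minimum with library-size scaling). In RKO it had 264 and 265 CPM in normoxia and 167 and 151 CPM in hypoxia (-0.74 ± 0.15, adjusted p = 0.00354). The conditions were separate in both lines, with hypoxia above normoxia in H460 and below it in RKO. In A549 it had 92.5 and 65.5 CPM in normoxia and 73.3 and 62.2 CPM in hypoxia, which overlapped (-0.22 ± 0.21, adjusted p = 0.635). The difference of the effects, RKO minus H460, was -1.43 ± 0.23 (adjusted p = 0.000543, joint edgeR fit of 12 libraries), the smallest p of the 77 for that pair of lines.

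**Figure D2:**
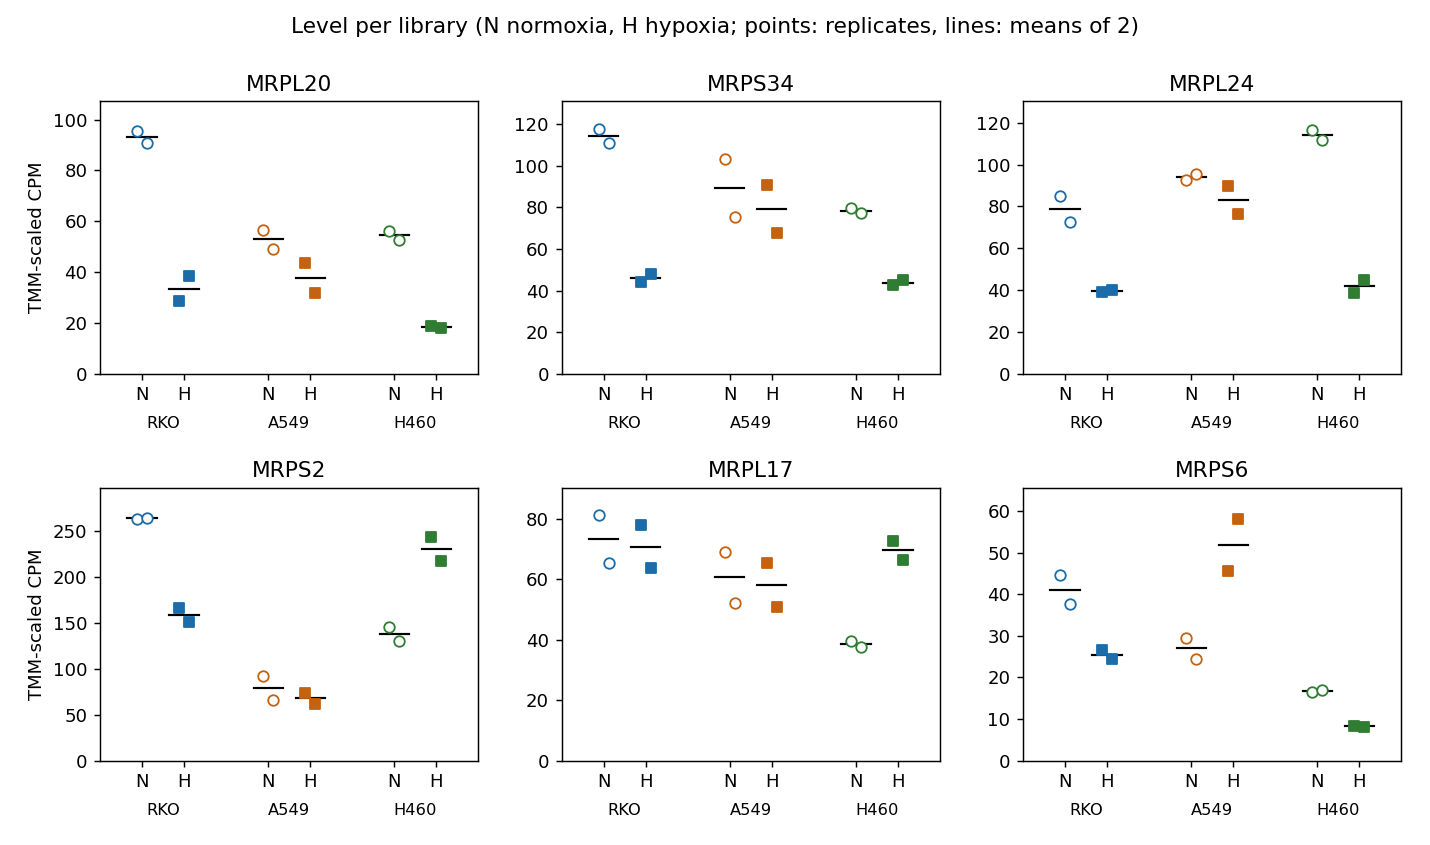
TMM-scaled CPM (y axis from 0) of 6 genes in each library, by line and condition (N normoxia, open circles; H hypoxia, filled squares; horizontal lines are means of 2 replicates). MRPL20, MRPS34 and MRPL24 are lower in hypoxia in RKO and H460, MRPS2 is lower in RKO and higher in H460, MRPL17 is higher in H460, and MRPS6 is higher in A549 and lower in RKO and H460.

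In A549, 0 of the 77 genes were called lower and 1, MRPS6, was called higher, when 0.456% and 2.22% of the 14251 genes tested in A549 were called lower and higher. At an unadjusted p under 0.05, 9 were lower and MRPS6 was higher, DESeq2 called 0 lower and 1 higher, and limma on log2 RPKM called 0 in either direction. Still, 67 of the 77 log2 fold changes were negative, with a median of -0.20 (-0.01 over all genes), and 74 with a median of -0.29 under library-size scaling. In 35 genes both hypoxia libraries lay below both normoxia libraries and in 3 above, against 24.7% and 25.1% of all genes. The hypoxia libraries of A549 differed from each other: the median of the 77 against the normoxia mean was -0.08 in replicate 1, with 51 below, and -0.32 in replicate 2, with 71 below. Without A549 hypoxia replicate 1, 3 genes were called lower.

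The lowest genes in A549 were MRPL46, MRPL12, MRPS18C and MRPS12. MRPL46 had 32.8 and 31.7 CPM in normoxia and 23.0 and 18.6 CPM in hypoxia (-0.63 ± 0.21, adjusted p = 0.187). Its conditions did not overlap, and it was called lower with the replicate number as a block (-0.64, adjusted p = 0.00989), in the joint fit of all libraries (-0.62, adjusted p = 0.0356) and without A549 hypoxia replicate 1 (-0.80, adjusted p = 0.0945). MRPL12, MRPS18C and MRPS12 had -0.57 ± 0.25, -0.54 ± 0.24 and -0.51 ± 0.20, with adjusted p = 0.296, 0.295 and 0.256. All 4 genes were called lower in both RKO and H460.

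MRPS6 (chr21:35445823-35515334, plus strand), a small subunit protein with a bacterial counterpart, had 29.6 and 24.4 CPM in the A549 normoxia libraries and 45.7 and 58.1 CPM in hypoxia. Both hypoxia libraries were above both normoxia libraries, with a log2 fold change of 0.94 ± 0.21 (adjusted p = 0.0783). The call was lost without A549 normoxia replicate 2 (0.81, adjusted p = 0.159), without A549 hypoxia replicate 2 (0.76, adjusted p = 0.288) and with library-size scaling (0.85, adjusted p = 0.133).

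In the other lines MRPS6 went down. It had 44.6 and 37.7 CPM in RKO normoxia and 26.6 and 24.3 CPM in RKO hypoxia (-0.69 ± 0.17, adjusted p = 0.0101; -0.56 and adjusted p = 0.109 without RKO normoxia replicate 1). In H460 it had 16.5 and 16.9 CPM in normoxia and 8.39 and 8.03 CPM in hypoxia (-1.02 ± 0.13, adjusted p = 1.53e-05). Conditions were separate in both lines. The effect differed between A549 and H460 by 1.97 ± 0.25 (adjusted p = 0.00014) and between RKO and A549 by -1.59 ± 0.24 (adjusted p = 0.002), the smallest interaction p of the 77 in both pairs.

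The body of MRPS6 overlaps SLC5A3, a myo-inositol transporter gene on the same strand, over 32739 bases, so reads in shared parts could not be assigned to one of them. SLC5A3 had 59.7 and 33.8 CPM in A549 normoxia and 76.1 and 81.6 CPM in hypoxia (0.75 ± 0.26, adjusted p = 0.206). In RKO it was called higher (0.66 ± 0.16, adjusted p = 0.00798), where MRPS6 was lower, and in H460 it had -0.46 ± 0.09 (adjusted p = 0.000526), under the fold minimum.

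Lower calls in RKO and H460 fell on 28 common genes, 57.1% of the 49 lower in RKO and 80% of the 35 lower in H460. Of 11873 genes tested in every line, 9.21% were lower in both. A further 21 genes were lower in RKO and not in H460, and 7 in H460 and not in RKO. 1 gene, MRPS2, was lower in RKO and higher in H460, against 0.489% of the genes tested in every line. No gene was called in the same direction in all 3 lines, and 17 were called in none. Averaged over the lines in the joint fit, 23 of the 77 were lower and 0 higher (11.5% and 14.8% of all genes, 26.4% in either direction), with a median of -0.45, and library-size scaling gave 40 lower. At an unadjusted p under 0.05 the average was lower in 63 and higher in 2, and DESeq2 also called 0 higher.

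**Figure D3:**
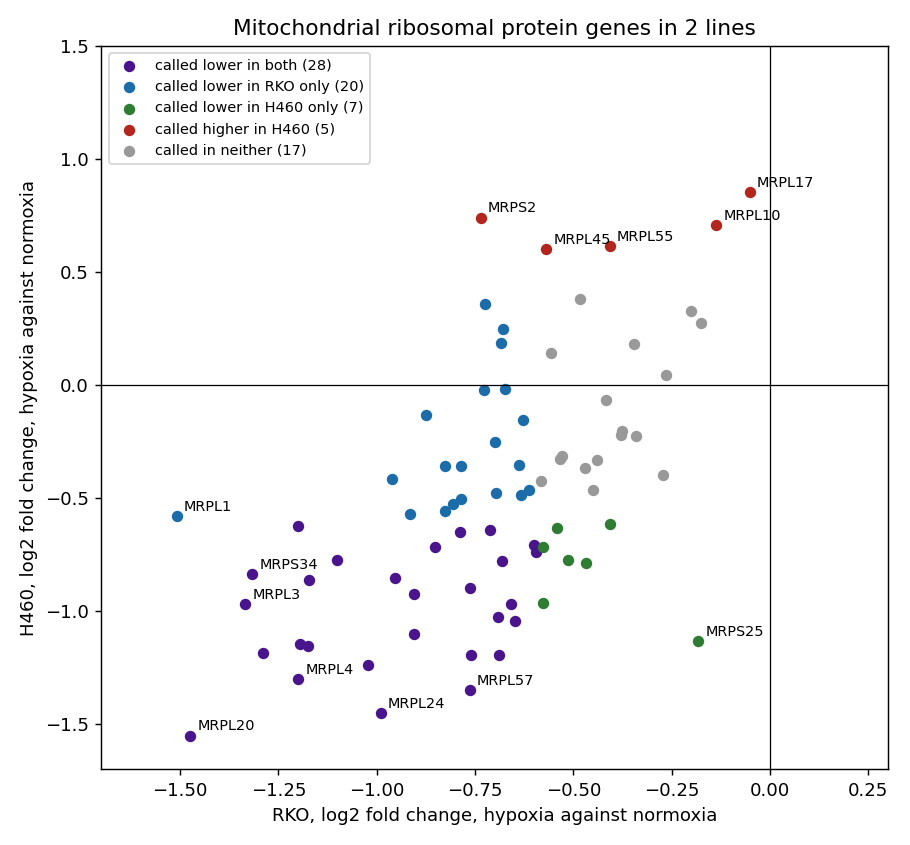
Log2 fold change in hypoxia against normoxia in RKO (x axis) and H460 (y axis); each point is 1 of the 77 genes, colored by its calls in these lines. MRPL20 is at the lower left, the 5 genes called higher in H460 are at the top, MRPS2 among them being called lower in RKO, and MRPS25 is lower in H460 only.

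The difference between lines was tested as an interaction in the joint fit, at the adjusted p alone. Between RKO and A549 the effect differed in 20 of the 77 genes, all 20 lower in RKO minus A549 and 0 higher, against 5.53% of all genes lower and 9.03% higher (14.6% in either direction). At an unadjusted p under 0.05 33 were lower and 0 higher, and DESeq2 called 30 lower and 0 higher. With the replicate number as a block within lines, 36 were lower, while library-size scaling gave 12 and an adjusted p under 0.05 gave 11. The count of 20 fell to between 7 and 13 when any of 7 libraries was left out (RKO normoxia replicate 1, RKO hypoxia replicate 1, A549 normoxia replicate 2, A549 hypoxia replicate 1, H460 normoxia replicate 2 and either H460 hypoxia library), and was 7 without RKO normoxia replicate 1.

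After MRPS6, the smallest p for RKO against A549 belonged to MRPS28 and MRPL1. MRPS28 had 45.9 and 45.0 CPM in RKO normoxia against 18.3 and 18.8 CPM in hypoxia (-1.29 ± 0.17, adjusted p = 0.000364), and 41.4 and 36.7 CPM in A549 normoxia against 39.5 and 34.5 CPM in hypoxia (-0.08 ± 0.19, adjusted p = 0.88). The conditions were separate in RKO and overlapped in A549, and the difference was -1.17 ± 0.21 (adjusted p = 0.00562). MRPL1 had 24.0 and 25.9 CPM in A549 normoxia and 26.5 and 20.9 CPM in hypoxia, and its difference was -1.39 ± 0.27 (adjusted p = 0.00917).

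Between RKO and H460 the effect differed in 22 genes, 17 lower and 5 higher in RKO minus H460, against 16.4% and 21.1% of all genes (37.6% in either direction). With the replicate block 8 were higher, and without any 1 library of these lines the 5 became 1 to 3. Library-size scaling turned this split to 6 lower and 20 higher. After MRPS2, the smallest p belonged to MRPL45 (-1.12 ± 0.19, adjusted p = 0.000845) and MRPL44 (-1.04 ± 0.20, adjusted p = 0.00154). MRPL44, a mitochondria-specific large subunit protein, had 62.8 and 54.4 CPM in RKO normoxia against 34.5 and 36.3 CPM in hypoxia, and 33.4 and 33.9 CPM in H460 normoxia against 41.7 and 44.6 CPM in hypoxia. It was called lower in RKO (-0.73 ± 0.16, adjusted p = 0.00559) and stayed under the fold minimum in H460 (0.36 ± 0.09, adjusted p = 0.00407; 0.0070 with library-size scaling). MRPS25 was the converse: in RKO it had 95.9 and 112 CPM in normoxia and 78.8 and 104 CPM in hypoxia, which overlapped, and in H460 167 and 183 CPM in normoxia and 71.1 and 88.2 CPM in hypoxia (-1.13 ± 0.11, adjusted p = 2.08e-06), with a difference of 0.99 ± 0.26 (adjusted p = 0.0119).

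Between A549 and H460 the effect differed in 31 genes, 25 higher and 6 lower in A549 minus H460, against 18.8% and 17.2% of all genes (36% in either direction), and library-size scaling gave 44 and 3. The 25 became 10 to 16 without A549 hypoxia replicate 1 or any 1 H460 library. MRPL24 differed by 1.27 ± 0.19 (adjusted p = 0.000474), having 92.5 and 95.4 CPM in A549 normoxia and 89.6 and 76.4 CPM in hypoxia (-0.18 ± 0.17, adjusted p = 0.641). MRPS28 differed by 1.11 ± 0.21 (adjusted p = 0.00208).

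By role, the 16 small subunit proteins with a bacterial counterpart had 11 genes called lower in RKO and 10 lower and 1 higher (MRPS2) in H460. The 10 mitochondria-specific small subunit proteins had 6 lower in RKO and 5 lower in H460. The 29 large subunit proteins with a bacterial counterpart had 21 lower in RKO, and 13 lower and 2 higher in H460. The 21 mitochondria-specific large subunit proteins had 11 lower in RKO, and 7 lower and 2 higher in H460. Over all genes, 15.1% were lower and 18.8% higher in RKO, and 27.3% and 24.6% in H460. The role medians ranged from -0.79 to -0.63 in RKO, from -0.25 to -0.19 in A549 and from -0.69 to -0.36 in H460. The differences between roles were not tested.

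The genes of the stalk, which recruits translation factors, did not share one call. MRPL12, which forms the stalk, had 100.01 and 93.4 CPM in RKO normoxia against 42.7 and 43.1 CPM in hypoxia (-1.17 ± 0.15, adjusted p = 0.000353), and 83.2 and 82.8 CPM in H460 normoxia against 47.1 and 44.1 CPM in hypoxia (-0.86 ± 0.09, adjusted p = 3.18e-06). MRPL11, at the stalk base, was lower in both lines (-0.79 ± 0.17, adjusted p = 0.00421; -0.65 ± 0.09, adjusted p = 5.25e-05), while its neighbour MRPL10 was not called in RKO and was higher in H460. The interaction of line and oxygen for MRPL10, RKO minus H460, was -0.80 ± 0.24 (adjusted p = 0.0202).

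MRPS12, the protein of the decoding centre, had 68.0 and 60.6 CPM in RKO normoxia against 27.9 and 32 CPM in hypoxia (-1.10 ± 0.17, adjusted p = 0.00075). In H460 it had 32.8 and 29.7 CPM in normoxia against 18 and 18.4 CPM in hypoxia (-0.78 ± 0.10, adjusted p = 3.55e-05). Both lines showed separate conditions. MRPS30, which despite its symbol belongs to the large subunit, was lower in RKO (-0.70 ± 0.17, adjusted p = 0.00803), but at -0.56 under the fold minimum without RKO hypoxia replicate 2, and had -0.25 ± 0.10 (adjusted p = 0.0321) in H460, where library-size scaling gave -0.60 and a call. MRPS22, a mitochondria-specific small subunit protein, was called in no line, with -0.48 ± 0.18 in RKO (-0.63, adjusted p = 0.025 and called without RKO hypoxia replicate 1) and 0.38 ± 0.09 in H460 (0.03 with library-size scaling), and its effect differed between these lines by -0.82 ± 0.23 (adjusted p = 0.0152).

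The 3 paralogues related to bacterial S18 differed in their calls. MRPS18C was lower in RKO (-0.90 ± 0.19, adjusted p = 0.00372) and in H460 (-0.93 ± 0.14, adjusted p = 7.86e-05). MRPS18A, a large subunit protein, was called lower in H460 (-0.78 ± 0.11, adjusted p = 5.2e-05) and had -0.51 ± 0.17 (adjusted p = 0.0349) in RKO. MRPS18B was called lower in RKO (-0.64 ± 0.16, adjusted p = 0.0108; -0.52 and -0.53 without RKO normoxia replicate 1 or RKO hypoxia replicate 2) and had -0.35 ± 0.09 (adjusted p = 0.00308) in H460. With library-size scaling the calls of MRPS18B changed places, with -0.56 in RKO under the fold minimum and -0.70 in H460 past it. The counts of MRPS18B are uncertain to the extent that reads were shared with copies of its region, which was not tested. Whether these genes differ from each other was not tested. MRPS36, now known as a component of the oxoglutarate dehydrogenase complex rather than of the ribosome, was called in no line (-0.47 ± 0.19 in RKO, -0.04 ± 0.20 in A549 and -0.37 ± 0.12 in H460), but was called lower in H460 with library-size scaling (-0.72, adjusted p = 0.000207) and in both limma fits.

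Other genes of mitochondrial gene expression were read by the same fits, in which 15.1% of all genes were lower and 18.8% higher in RKO, and 27.3% and 24.6% in H460. Of 6 mitoribosome proteins with other symbols, 3 were lower in RKO and 1 in H460, with 0 in A549, and library-size scaling gave 2 and 5. AURKAIP1, a small subunit protein, was the 1 lower in both, with 118 and 106 CPM in RKO normoxia against 66.0 and 68.3 CPM in hypoxia (-0.73 ± 0.15, adjusted p = 0.00341) and -1.0 ± 0.09 in H460. ICT1, a peptidyl-tRNA hydrolase built into the large subunit, was lower in RKO (-0.95 ± 0.18, adjusted p = 0.00272).

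Of 26 assembly factors, 13 were lower in RKO and 14 in H460, with 0 in A549, and 1 was higher in H460. DDX28, an RNA helicase of large subunit assembly, had 34.8 and 32.3 CPM in RKO normoxia against 6.75 and 13.5 CPM in hypoxia (-1.73 ± 0.28, adjusted p = 0.00112), and 29.99 and 30.01 CPM in H460 normoxia against 6.20 and 6.85 CPM in hypoxia (-2.20 ± 0.12, adjusted p = 2.27e-08). Every hypoxia value was below the normoxia values of its line. NOA1, a GTPase needed for the small subunit, was the 1 higher in H460 (1.06 ± 0.10, adjusted p = 1.73e-06).

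Of 16 translation factors, 10 were lower in RKO and 8 in H460 (7 and 14 with library-size scaling), with 0 in A549, and MTIF3, an initiation factor, was higher in H460 (1.11 ± 0.10, adjusted p = 1.04e-06). The elongation factor GFM1 was lower in RKO (-0.97 ± 0.16, adjusted p = 0.00107), and likewise in H460 (-1.34 ± 0.09, adjusted p = 1.6e-07). SLIRP, which protects mitochondrial mRNAs, was lower in RKO (-1.25 ± 0.16, adjusted p = 0.000378), as it was in H460 (-1.37 ± 0.09, adjusted p = 1.02e-07). Of 11 genes of mitochondrial DNA transcription and maintenance, 5 of the 10 tested were lower in RKO, 0 in A549, and 7 were lower and 1 (POLG) higher in H460. For these 4 lists in A549, an unadjusted p under 0.05 was reached by 0, 6, 2 and 2 genes, all lower, and DESeq2 called 0 in each.

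The regulators were called in both directions within each line. Of 11 regulators of mitochondrial biogenesis, 6 of the 10 tested in RKO were lower and 1 higher. A549 had 1 lower and 1 higher call, while H460 had 2 lower and 3 higher (4 and 3 under library-size scaling). Among all genes tested, 15.1% were lower and 18.8% higher in RKO. The A549 shares were 0.456% and 2.22%, those of H460 27.3% and 24.6%. Calls over all genes were thus also split between directions, and a departure of the regulators from these shares was not tested. PPARGC1B, a coactivator of mitochondrial genes, had 28.7 and 30.8 CPM in H460 normoxia against 2.33 and 3.15 CPM in hypoxia (-3.43 ± 0.15, adjusted p = 5.84e-09) and was also lower in RKO (-1.05 ± 0.20, adjusted p = 0.00281). Its paralogue PPARGC1A was called higher in H460, with 18.8 and 17.9 CPM in normoxia against 53.2 and 47.0 CPM in hypoxia (adjusted p = 1.69e-07). In A549 PPARGC1A was called lower, from 4.32 and 5.78 CPM to 2.22 and 1.70 CPM (adjusted p = 0.0953), and in RKO it was below the filter. MAX was called higher in H460 as well. MXI1, an antagonist of MYC, was higher in RKO (0.92 ± 0.28, adjusted p = 0.0238), A549 (2.06 ± 0.36, adjusted p = 0.0297) and H460 (3.32 ± 0.11, adjusted p = 9.93e-10).

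The cytosolic ribosomal protein genes, the counterparts for the ribosome outside mitochondria, served for comparison. Of 86 such genes, 81 were tested in RKO, where 5 were lower and 1 higher (median -0.12), 81 in A549, where 0 were called (1 higher at an unadjusted p under 0.05, 0 by DESeq2, median 0.16), and 82 in H460, where 4 were lower and 28 higher (median 0.53). Of all genes tested, the RKO fit called 15.1% lower and 18.8% higher. The A549 fit called 0.456% lower and 2.22% higher, and the H460 fit 27.3% lower and 24.6% higher. Under library-size scaling the H460 median of the cytosolic list was 0.18, and 0 of its genes were called higher there. Its RKO median was then -0.04. Under both scalings the medians of the cytosolic list lay above those of the mitochondrial list in each line.

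**Figure D4:**
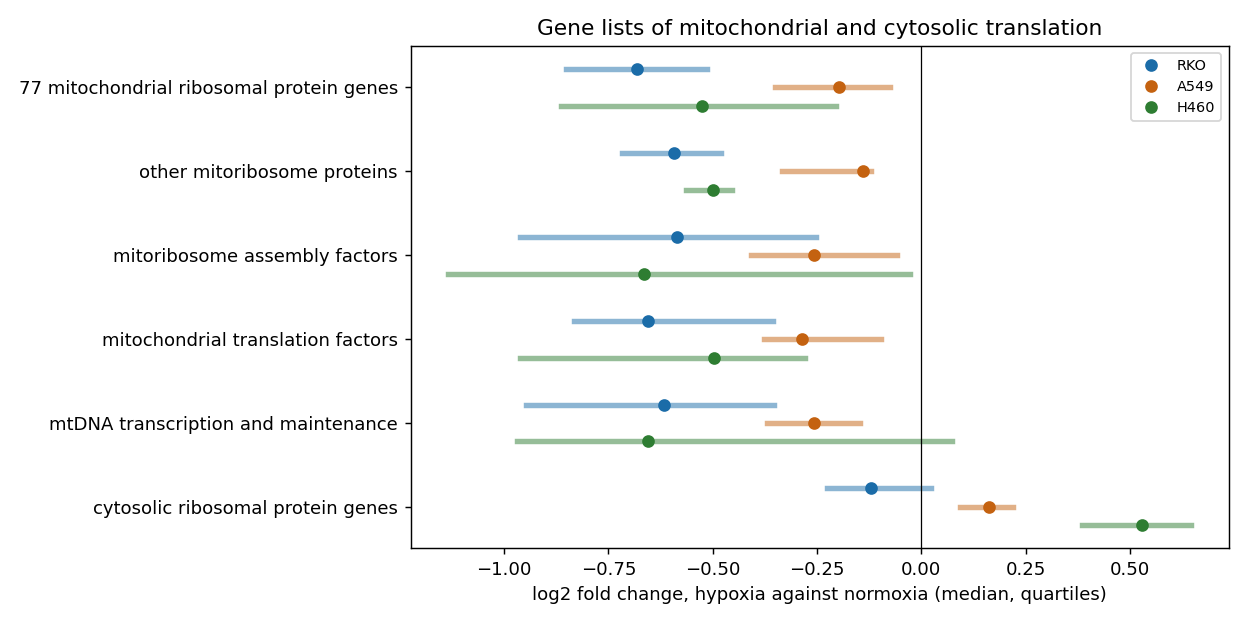
Median (points) and quartiles (bars) of the log2 fold change in hypoxia against normoxia (x axis) over the tested genes of 6 lists, by line. The mitochondrial lists have medians below 0 in every line, and the cytosolic ribosomal protein list has medians of -0.12 in RKO, 0.16 in A549 and 0.53 in H460.

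The genes are scattered: 76 with a usable position in the deposited coordinates (GRCh37) lay on 21 chromosomes. Of these 76, 28 (36.8%) had a neighbour on the opposite strand whose start lay within 1000 bases, against 17.6% of 15395 tested genes. Pairs that pointed apart and pairs that overlapped at their starts were both counted. MRPL46 (chr15:89002709-89010633, minus strand) and MRPS11 (chr15:89010684-89021861, plus strand) formed such a pair with each other, 51 bases apart in these coordinates. MRPL46 had 31.1 and 27.4 CPM in RKO normoxia against 12.2 and 13.3 CPM in hypoxia (-1.19 ± 0.19, adjusted p = 0.000914), and MRPS11 38.5 and 34.4 CPM against 20.7 and 24.8 CPM (-0.68 ± 0.18, adjusted p = 0.0124). In H460 both were also lower (-1.15 ± 0.11, adjusted p = 2.25e-06; -0.78 ± 0.12, adjusted p = 7.54e-05).

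Neighbours that are not mitochondrial ribosomal protein genes went with their partner in some pairs only. Of 26 tested in RKO, 7 were lower and 2 higher, when 15.1% and 18.8% of all genes were. Of 24 in A549, 0 were called (4 lower and 1 higher at an unadjusted p under 0.05, 1 lower by DESeq2), and of 25 in H460, 10 were lower and 3 higher, against 27.3% and 24.6% of all genes. MRPS12 and SARS2, the mitochondrial seryl-tRNA synthetase gene 188 bases away, were both lower in RKO, SARS2 at -0.98 ± 0.20 (adjusted p = 0.00399), and in H460 SARS2 had -0.58 ± 0.10 (adjusted p = 0.000228), just under the fold minimum.

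MRPL43 starts 21 bases from C10orf2, which encodes the helicase of mitochondrial DNA replication. C10orf2 had 92.8 and 99.5 CPM in RKO normoxia against 16.0 and 32.3 CPM in hypoxia (-1.99 ± 0.27, adjusted p = 0.000439), and 44.7 and 39.3 CPM in H460 normoxia against 9.07 and 9.46 CPM in hypoxia (-2.18 ± 0.11, adjusted p = 1.63e-08). MRPL43 had 55.8 and 51.3 CPM in RKO normoxia against 33.8 and 30.8 CPM in hypoxia (-0.73 ± 0.16, adjusted p = 0.00549), and 49.9 and 46.5 CPM in H460 normoxia against 46.6 and 48.1 CPM in hypoxia (-0.02 ± 0.09, adjusted p = 0.831). Thus C10orf2 was lower in both lines and MRPL43 in RKO, with overlapping conditions in H460.

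In 2 pairs the genes were called in opposite directions in a line. MRPL2, whose bacterial counterpart lies at the peptidyl transferase centre, was lower in RKO (-0.63 ± 0.16, adjusted p = 0.012), where its neighbour KLC4, a kinesin light chain gene 90 bases away, was higher (0.95 ± 0.21, adjusted p = 0.00612). KLC4 was also higher in H460 (2.07 ± 0.10, adjusted p = 9.96e-09), and MRPL2 was not called there (-0.15 ± 0.10, adjusted p = 0.165). MRPL10 was higher in H460 and its neighbour LRRC46 lower (-1.01 ± 0.45, adjusted p = 0.0614). The MRPL10 value fell under the fold minimum with library-size scaling (0.35) and in both limma fits. The pairs named here were chosen after their values were seen.

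**Figure D5:**
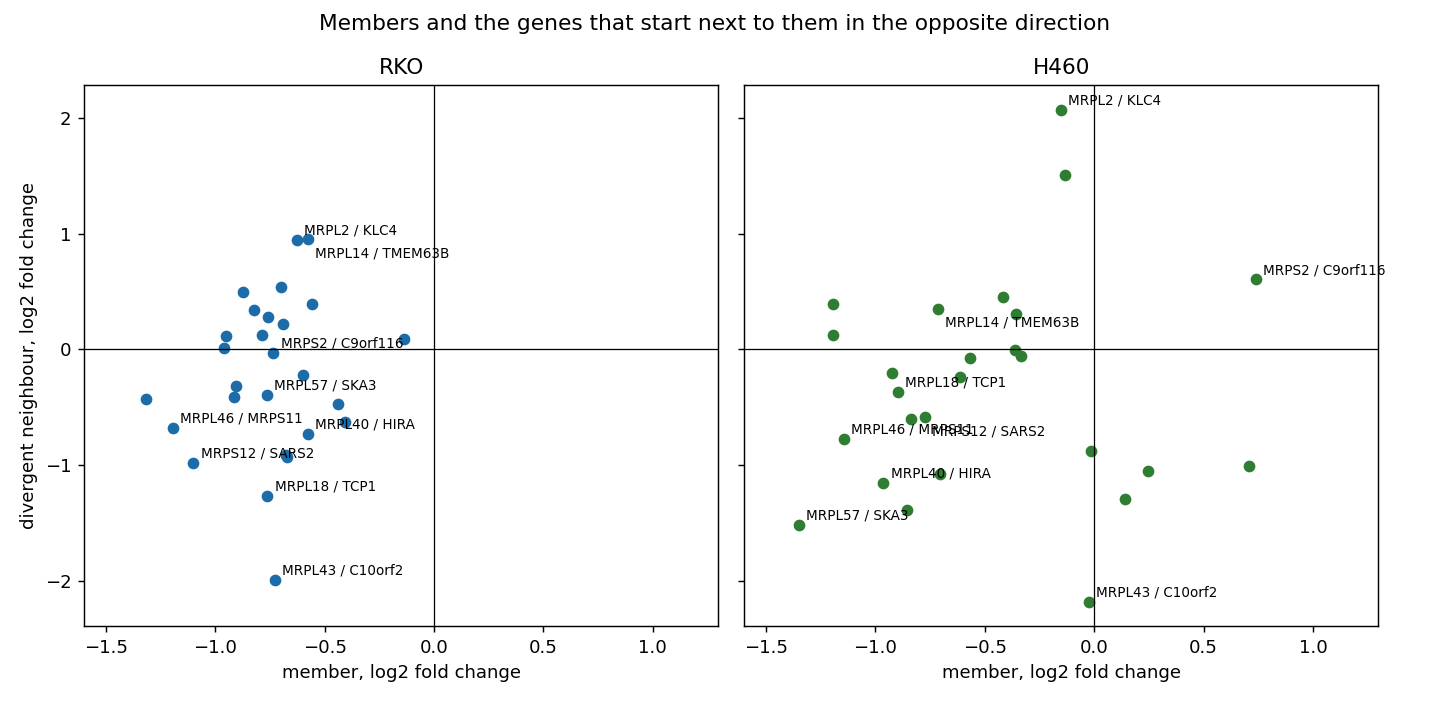
Log2 fold change in hypoxia against normoxia of each gene (x axis) and of the neighbour that starts within 1000 bases in the opposite direction (y axis), in RKO and H460; each point is 1 pair, and the MRPL46 and MRPS11 pair is drawn once. C10orf2 lies lowest on the y axis in both lines, and KLC4 lies above 0 in both.

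Between lines in normoxia, 28 of the 77 differed between RKO and A549, 22 higher and 6 lower in RKO, when 26% and 34.1% of all genes were higher and lower at the same rule (60.2% in either direction). Between RKO and H460 29 differed, 22 higher and 7 lower in RKO (27.2% and 34.7% of all genes, 61.9% in either direction), and between A549 and H460 26, 17 higher and 9 lower in A549 (26.9% and 25.2%, 52.1% in either direction). MRPL13 had 174 and 147 CPM in RKO normoxia, 52.3 and 51.1 CPM in A549 and 29.2 and 28.3 CPM in H460. The lines were separate and in that order, RKO exceeding A549 by 1.54 ± 0.14 on the log2 scale (adjusted p = 2.17e-07) and A549 exceeding H460 by 0.69 ± 0.14 (adjusted p = 0.000646). MRPS33, chosen after its values were seen, ran the other way for RKO, with 14.0 and 10.4 CPM in RKO, 38.0 and 41.7 CPM in A549 and 34.5 and 35.2 CPM in H460. RKO lay -1.80 ± 0.17 from A549 (adjusted p = 2.77e-07) and -1.76 ± 0.17 from H460 (adjusted p = 3.45e-07), while A549 and H460 differed by 0.04 ± 0.16 (adjusted p = 0.84). The values of MRPL45, MRPS31 and MRPL42, which are known to have near-identical copies elsewhere in the genome, are uncertain to the extent that reads were shared with those copies, which was not tested.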

How the data were processed

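Poly(A)+ RNA of 12 cultures was sequenced strand-specifically. Per the submitters' processing notes, reads were converted with bcl2fastq, checked with FastQC 0.11.5, aligned to GRCh37 with TopHat2 2.0.13 and Bowtie2 2.2.3.0, handled with SAMtools 1.3.1 and Picard 1.129, and counted per gene with HTSeq 0.6.1, which leaves out ambiguous reads. The authors deposited raw counts per gene, and separately RPKM values (counts divided by gene length and library total), in which each library is scaled by its total only. Counts were tested here, and RPKM was used for levels between genes and in an alternative.

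Genes over 0.5 CPM in at least 2 libraries were fitted per line (4 libraries) with edgeR 4.0.16 (R 4.3.3, TMM factors, quasi-likelihood F test, Benjamini-Hochberg adjustment over all genes tested). A call needed an adjusted p under 0.1 and a fold change over 1.5. Interactions, normoxia contrasts and the average came from a joint fit of 12 libraries, interactions being called at the adjusted p alone. SE was the absolute log2 fold change divided by the square root of F. Alternatives used DESeq2 1.42.0, limma 3.58.1 on log2(RPKM + 0.1) and log2(RPKM + 1), other scalings, filters and thresholds, a replicate block, and each library left out in turn. The fits were also run on simulated counts with the same spread for all genes and independent libraries. Such counts could not test the effect of deviations shared by replicate number or of a shift in scaling.

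The members and lists were chosen with earlier results of these data known. Genes named with values were the 4 lowest and 4 highest log2 fold changes per line, opposite calls, the 3 smallest interaction p-values per pair of lines, the 3 highest and lowest RPKM per line and a panel by role; others are said to be chosen after their values were seen. The neighbours and the genes of the other lists were named as examples. The 2 replicates of a group were separate biological samples, as the study's methods state. Replicates differed beyond counting noise (chi-square per degree of freedom from 10.3 to 79.2). Samples with the same replicate number deviated from their group means together, with correlations of 0.356 in RKO, 0.371 in A549 and 0.145 in H460, and this pairing was taken from the data and the shared numbers.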

Additional observations from a re-analysis of the deposited data

Results flagged for a closer look

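The response to hypoxia differed between lines in some of the 77 genes by the interaction test of the joint edgeR fit. It differed in 20 of the 77 genes for RKO against A549, when 14.6% of all genes did. For RKO against H460 it differed in 22 (37.6% of all genes) and for A549 against H460 in 31 (36% of all genes). The count for RKO against H460 was a smaller share than over all genes, and that for A549 against H460 was near it. Library-size scaling turned the balance of the RKO minus H460 calls from mostly lower to mostly higher. The single genes below are given as the log2 difference of the first line minus the second. For RKO minus A549 the differences were -1.39 for MRPL1, -1.17 for MRPS28, -1.10 for MRPS34, -0.90 for MRPL3 and -0.62 for MRPL11. For RKO minus H460 they were -1.43 for MRPS2, -1.12 for MRPL45, -1.04 for MRPL44, -0.98 for MRPL55, -0.82 for MRPS22, -0.80 for MRPL10 and 0.99 for MRPS25. For A549 minus H460 they were 1.97 for MRPS6, 1.27 for MRPL24, 1.06 for MRPL20, 1.05 for MRPL57, 0.83 for MRPL4 and -0.92 for MRPL17. Line and medium cannot be told apart in the differences that involve H460.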

How the results depend on the processing

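Under the alternatives, 321 counts and medians stayed within 1.5 times the count or within the replicate spread and 74 did not, and the cause was not tested. A fold change over 2 left 12 genes lower in RKO, 14 lower and 0 higher in H460 and 0 higher in A549, and no fold minimum gave 57 lower and 10 higher in H460. Library-size scaling gave a median of -0.59 in RKO, 0 higher in A549, and 55 lower, 0 higher and a median of -0.88 in H460. It also gave 12 lower for RKO minus A549, 20 higher and 6 lower for RKO minus H460, 44 higher and 3 lower for A549 minus H460, and 40 lower for the average. The H460 median was -0.49 with DESeq2 and with RLE factors. Limma on log2(RPKM + 0.1) gave 55 lower, 0 higher and a median of -0.87 in H460, and with 1 added 53 lower, 0 higher and -0.82; the RKO median was then -0.58, and both gave 0 higher in A549. An adjusted p under 0.05 gave 0 higher in A549, 11 lower for RKO minus A549, 1 higher for RKO minus H460 and 3 lower for A549 minus H460. Without a filter 3 were higher for RKO minus H460. The joint fit gave 1 lower in A549. Without a fold minimum the average had 2 higher and 63 lower, and the normoxia levels 15 lower for RKO minus A549, 39 higher and 14 lower for RKO minus H460, and 28 higher and 20 lower for A549 minus H460.

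With the replicate block, 36 were lower for RKO minus A549, 8 higher for RKO minus H460 and 1 (MRPL46) lower in A549, and the RKO and H460 calls within lines numbered 49 lower and 0 higher, and 35 lower and 5 higher.

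With 1 library left out, the genes called lower ranged from 40 to 56 in RKO, from 0 to 3 in A549 (3 without A549 hypoxia replicate 1) and from 33 to 37 in H460. Those called higher ranged from 0 to 1 in A549 (0 without A549 normoxia replicate 2 or A549 hypoxia replicate 2) and from 3 to 5 in H460 (3 without H460 normoxia replicate 2 or H460 hypoxia replicate 1). Medians ranged from -0.75 to -0.60 in RKO, -0.35 to -0.09 in A549 and -0.57 to -0.50 in H460. The interaction gave 7 to 29 lower for RKO minus A549, 1 to 6 higher and 12 to 17 lower for RKO minus H460, and 10 to 29 higher and 3 to 6 lower for A549 minus H460 (3 without H460 normoxia replicate 2 or H460 hypoxia replicate 1). The average gave 20 to 26 lower. Normoxia levels gave 18 to 25 higher and 4 to 8 lower for RKO minus A549, 15 to 25 higher and 6 to 11 lower for RKO minus H460 (11 without RKO normoxia replicate 1), and 11 to 20 higher (11 without A549 normoxia replicate 1) and 9 to 11 lower for A549 minus H460.

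Among the genes named, signs turned in genes that were not called in that line. MRPL10 in A549 had -0.0054 (library size), -0.010 (limma with 0.1 added) and -0.0099 (limma with 1 added). MRPL17 in RKO had 0.030 (library size), 0.011 (the joint fit), 0.032 (limma with 0.1 added) and 0.031 (limma with 1 added). MRPL19 in H460 had -0.17 (library size), -0.17 (limma with 0.1 added) and -0.15 (limma with 1 added). MRPL51 in A549 had -0.031 (library size), -0.034 (limma with 0.1 added) and -0.034 (limma with 1 added). MRPS14 in A549 had -0.058 (library size), -0.073 (limma with 0.1 added) and -0.064 (limma with 1 added). MRPS24 in A549 had -0.050 (library size), -0.018 (limma with 0.1 added) and -0.019 (limma with 1 added). MRPS24 in H460 had -0.077 (library size), -0.080 (limma with 0.1 added) and -0.074 (limma with 1 added). With 1 RKO library left out, values ran from -0.20 to 0.11 for MRPL17, -0.38 to 0.058 for MRPS24, -0.38 to 0.041 for MRPS25 and -0.31 to 0.065 for MRPL10. With 1 A549 library left out, values ran from -0.28 to 0.027 for MRPL11, -0.26 to 0.15 for MRPL17, -0.19 to 0.11 for MRPL33, -0.45 to 0.23 for MRPL41, -0.45 to 0.048 for MRPS2, -0.18 to 0.020 for MRPS28, -0.40 to 0.073 for MRPS34, -0.13 to 0.25 for MRPL51, -0.27 to 0.43 for MRPS24, -0.14 to 0.073 for MRPS36, -0.19 to 0.21 for MRPS14, -0.26 to 0.085 for MRPL1, -0.086 to 0.24 for MRPL10 and -0.15 to 0.074 for MRPL13.

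With 2 replicates per group, small changes are not resolved: the median SE of a log2 fold change was 0.16 (RKO), 0.19 (A549) and 0.10 (H460).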
